A study of Mus musculus with 12 samples.

Results

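A group of 8 mouse genes stood out in a list of PAR-CLIP read clusters because clusters inside them held very many reads: Cdk8, Jarid2, Filip1l, Cmss1, Arhgap21, Sspn, Phkb and D130009I18Rik. A cluster is a stretch of the genome where sequenced reads pile up. The genes had been chosen by their read counts, so those counts are given as a description and were not tested. A cluster belonged to a gene when its midpoint lay inside the gene's annotated span on either strand. By this rule 22 of the 4762 clusters of the list were members, with 98384 of its 553902 reads (17.8%). Filip1l and Cmss1 overlap on opposite strands and hold the same 5 clusters, which makes 27 pairs of a gene and a cluster.

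The study made 12 libraries in 3 groups of 4 from female C57BL/6 neural stem cell lines, which were grown from E14.5 embryos. PAR-CLIP feeds cells 4-thiouridine, joins the labelled RNA to bound protein with ultraviolet light, and then reads the RNA that is pulled down. Group 1 was Smchd1GFP/GFP, in which each Smchd1 allele carries GFP, and was crosslinked. Smchd1 is a chromatin protein that acts in X inactivation. Group 2 was Smchd1GFP/GFP without crosslinking by its titles, although its treatment protocol states irradiation. Group 3 was untagged Smchd1+/+ and crosslinked. The protocols give 100 µM 4-thiouridine for 24 hours in all groups and 0.15 J/cm2 of light at 365 nm. The list has 1 read count per cluster and none per library, so no group could be compared with another and no value below has a replicate error. Whether any of the reads came from the tagged group more than from its controls cannot be read from these values. In the annotation 3.53% of genes and 6.89% of protein-coding genes had a cluster on either strand. Of the 8 neural stem cell markers 2 had a cluster on either strand, Slc1a3 with 15 reads and Msi2 with 26. Of 3 neuron markers Gap43 had 1833 reads and Map2 had 72, of 2 fibroblast markers Col3a1 had 33, and neither of 2 microglia and blood markers had a cluster. The single Gap43 cluster shared a stretch of 30 bases with another cluster of the list, and those of Slc1a3, Msi2, Map2 and Col3a1 did not. The Map2 clusters lay opposite to the gene, and those of Slc1a3, Msi2, Gap43 and Col3a1 lay on its strand. Read clusters do not measure expression, so this does not test the labelled cell type.

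The genes have no role in common. Cdk8 encodes a kinase of the Mediator complex, which links transcription factors to RNA polymerase, and Jarid2 encodes a partner of the Polycomb complex PRC2, which methylates histone H3. Cmss1 is named for a yeast protein of ribosome production, Filip1l for an interaction of its relative with filamin, and Arhgap21 encodes a GTPase-activating protein. Sspn encodes sarcospan, a membrane protein of the dystrophin complex, and Phkb a regulatory subunit of the kinase that activates glycogen phosphorylase. D130009I18Rik is a long intergenic non-coding RNA gene. An RNA of a gene is read from the strand of that gene, and a mature mRNA holds its exons. A cluster in an intron or on the opposite strand is therefore not a piece of the mature mRNA. Sequences that occur at many places in a genome form a further case, because a read of such a sequence can be placed at each copy.

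The sequences of the clusters come first, since they show what the genes share. Capitals mark bases inside words of 30 bases that were also found, on either strand, in a row elsewhere in the genome, and lower case marks the rest. The first 3 show that clusters of different genes repeat each other, and the next 5 show further clusters from the same loci or from Jarid2. The last of these, of 726 reads, shared no word of 20 or of 30 bases with another row.
Cmss1 and Filip1l, 5964 reads (chr16:57391136-57391282, minus strand): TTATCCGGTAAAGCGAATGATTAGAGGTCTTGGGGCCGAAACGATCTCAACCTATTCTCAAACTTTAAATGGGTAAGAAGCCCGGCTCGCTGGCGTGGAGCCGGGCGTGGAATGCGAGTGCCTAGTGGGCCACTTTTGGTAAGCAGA
Arhgap21, 5964 reads (chr2:20900029-20900159, plus strand): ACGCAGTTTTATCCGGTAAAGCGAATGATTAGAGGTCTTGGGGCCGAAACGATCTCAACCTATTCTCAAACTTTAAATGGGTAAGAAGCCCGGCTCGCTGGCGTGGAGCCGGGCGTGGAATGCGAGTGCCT
Sspn, 5639 reads (chr6:145932751-145932833, minus strand): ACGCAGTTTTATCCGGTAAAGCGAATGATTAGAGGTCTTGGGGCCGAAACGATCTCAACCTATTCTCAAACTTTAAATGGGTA
Arhgap21, 1800 reads (chr2:20899852-20900000, minus strand): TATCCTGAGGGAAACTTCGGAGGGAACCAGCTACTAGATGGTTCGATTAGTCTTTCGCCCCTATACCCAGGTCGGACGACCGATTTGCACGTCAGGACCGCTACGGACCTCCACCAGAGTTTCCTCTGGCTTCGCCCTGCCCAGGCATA
Jarid2, 7837 reads (chr13:44869917-44870018, minus strand): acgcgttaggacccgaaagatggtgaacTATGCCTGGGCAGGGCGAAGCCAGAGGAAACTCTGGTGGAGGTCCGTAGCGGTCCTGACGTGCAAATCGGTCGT
Jarid2, 108 reads (chr13:44869894-44869987, plus strand): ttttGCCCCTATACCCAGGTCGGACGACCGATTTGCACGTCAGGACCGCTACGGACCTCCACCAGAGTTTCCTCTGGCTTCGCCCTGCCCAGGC
Jarid2, 183 reads (chr13:44869575-44869663, minus strand): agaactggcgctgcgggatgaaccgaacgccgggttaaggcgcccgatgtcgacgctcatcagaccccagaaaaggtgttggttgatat
Filip1l and Cmss1, 726 reads (chr16:57391496-57391579, plus strand): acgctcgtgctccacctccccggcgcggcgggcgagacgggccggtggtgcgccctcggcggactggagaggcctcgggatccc
The Sspn cluster was wholly contained in the Arhgap21 cluster of 5964 reads, and the last 123 bases of that Arhgap21 cluster were the first 123 of the Cmss1 and Filip1l cluster. D130009I18Rik held a cluster of 5965 reads on chromosome 14 (104715824 to 104715970, minus strand) whose 147 bases were identical to the Cmss1 and Filip1l cluster.

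The clusters of Cdk8 are shown because the first held the most reads of the list and neither was repeated in another row.
Cdk8, 43217 reads (chr5:146261110-146261204, minus strand): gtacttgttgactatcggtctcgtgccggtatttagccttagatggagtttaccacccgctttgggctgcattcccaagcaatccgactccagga
Cdk8, 86 reads (chr5:146260995-146261079, plus strand): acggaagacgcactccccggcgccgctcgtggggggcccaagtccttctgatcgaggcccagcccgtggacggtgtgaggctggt
The sequences of Phkb and of 2 near copies are shown because copies with different bases held different counts. Capitals mark the 3 positions that vary in the Phkb line and the changed bases in each copy.
Phkb, 3137 reads (chr8:85954196-85954280, plus strand): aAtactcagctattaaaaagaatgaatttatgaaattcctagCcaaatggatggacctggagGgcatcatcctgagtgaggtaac
Copy with C43G (chr1:98412647-98412731, minus strand): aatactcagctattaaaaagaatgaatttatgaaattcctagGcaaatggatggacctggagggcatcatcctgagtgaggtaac
Copy with A2C and G63A (chr1:5356437-5356521, plus strand): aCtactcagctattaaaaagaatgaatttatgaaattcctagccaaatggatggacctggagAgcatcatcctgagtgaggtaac
Positions count from 1 at the 5′ end of the Phkb cluster, with the base of Phkb written first and the base of the copy last.

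Reads in each gene rested on very few clusters, as the plot of reads by gene shows. In Cdk8 (chromosome 5, 146231230 to 146302874, plus strand) 2 clusters held 43303 reads, of which 43217 (99.8%) were in 1 cluster on the opposite strand and 86 were in a cluster on the strand of the gene. The 2 clusters were 30 bases apart in an intron, 1123 and 1008 bases from the nearest exon. In Jarid2 (chromosome 13, 44729474 to 44921643, plus strand) 3 clusters held 8128 reads, with 7837 and 183 on the opposite strand and 108 on the strand of the gene. Both genes thus had nearly all reads opposite to their mRNA, 99.8% in Cdk8 and 98.7% in Jarid2. These 2 shares each follow from 1 cluster.

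Filip1l (chromosome 16, 57353093 to 57573126, plus strand) and Cmss1 (57302000 to 57606864, minus strand) shared clusters of 5964, 4413, 1604, 726 and 346 reads, 13053 in all. Those of 4413, 1604 and 726 reads lay on the strand of Filip1l and those of 5964 and 346 on the strand of Cmss1. The opposite strand therefore held 48.3% of the reads for Filip1l and 51.7% for Cmss1. Arhgap21 (chromosome 2, 20847919 to 20968881, minus strand) had clusters of 4416 and 1800 reads on its strand and of 5964, 348 and 18 on the opposite strand (50.5% of 12546 reads). D130009I18Rik (chromosome 14, 104612791 to 104966783, plus strand) had 4414 reads on its strand and 5965 opposite (57.5%). In these 4 genes the 2 strands of 1 short stretch held similar reads in sum. Within the stretch the strands were less even. Overlapping clusters on opposite strands held 1604 and 346 reads in Filip1l and Cmss1, and 1800 and 348 in Arhgap21.

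Sspn (chromosome 6, 145931641 to 145965223, plus strand) had 1800 reads on its strand and clusters of 5639 and 387 opposite (77.0% of 7826). Phkb (chromosome 8, 85840959 to 86061376, plus strand) had 3137 and 12 reads, both on its strand. It was the only one of the 8 genes with no cluster on the opposite strand. Over the 27 pairs, 14 (51.9%, Wilson 95% interval 34.0 to 69.3) lay opposite to the gene, with 74.1% of the reads of the pairs. Each of the 5 clusters of Filip1l and Cmss1 enters once on each side by construction. The share opposite to the gene over all clusters of the list was not computed. Without the cluster of 43217 reads in Cdk8 the share of reads was 57.7%. The interval covers counting error only and takes the clusters as independent, although several are copies of 1 sequence, and PCR copies of 1 molecule cannot be told apart from separate molecules.

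**Figure D1:**
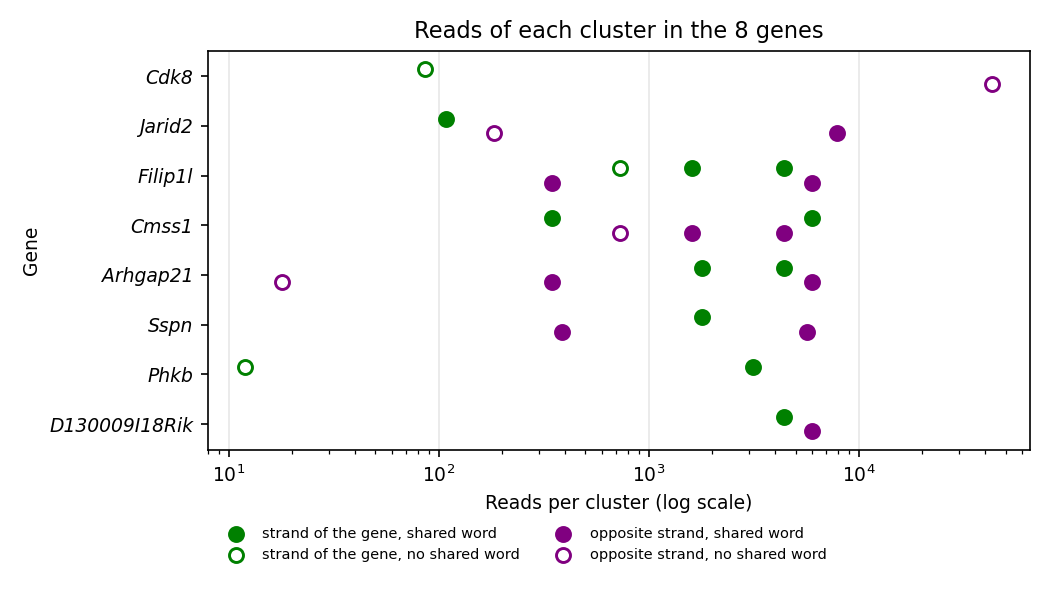
Reads per cluster (log scale) for each of the 8 genes. Green points lie on the strand of the gene and purple points on the opposite strand, and filled points share a 30-base word with another row of the list; Filip1l and Cmss1 show the same 5 clusters with the strands exchanged. Cdk8 has the highest point, 43217 reads, open and opposite to the gene.

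Position gave little sign of the genes' own exons. Of the 22 clusters 21 lay outside every annotated exon of their gene, between 216 and 53245 bases from the nearest. The same share over all clusters of the list that lie in genes was not computed, so whether this is unusual is not known. The remaining cluster, 18 reads on the plus strand of chromosome 2 (20850116 to 20850201), lay in an exon of Arhgap21 but on the opposite strand. Its 86 bases were all found in the transcript of Arhgap21 in reverse orientation. No cluster lay in an exon on the strand of its gene.

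Outside that exon, the clusters of each gene other than Phkb fell in 1 narrow window. They spanned 464 bases in Filip1l and Cmss1, which is 0.211% and 0.152% of the 2 spans. The window was 444 bases in Jarid2, 352 in Arhgap21, 257 in Sspn, 210 in Cdk8 and 172 in D130009I18Rik. The 2 clusters of Phkb spanned 75071 bases. 

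The windows of 6 genes were copies of the same sequence. Clusters were placed on a common line of 530 bases by exact words of 20 bases, starting from the window in Filip1l and Cmss1 and running along the strand of Cmss1. In all, 33 clusters at 13 loci could be placed. Of these, 17 were in 5 loci of the listed genes: Filip1l with Cmss1, Arhgap21, D130009I18Rik, Jarid2 and Sspn. Of the 10 loci with more than 1 cluster, 7 kept the spacing of the line to the base. The Filip1l and Cmss1 locus did so by construction, since the line was built on it. At D130009I18Rik and at loci on chromosomes 11 and 18 the 2 clusters overlap on opposite strands, which also fixed their spacing. Of the 7, only Arhgap21, Sspn and a locus without a gene on chromosome 6 could have departed from it. Jarid2 was shifted by 2 bases between its clusters, a locus on chromosome 15 by 1 and a locus on chromosome 8 by 3.

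In the later part of the line, clusters of the listed genes at the same place and strand held close numbers of reads. Read forward between bases 290 and 444, the 4 member clusters held 5965 reads in D130009I18Rik, 5964 in Filip1l and Cmss1, 5964 in Arhgap21 and 5639 in Sspn, the last being the shortest at 83 bases. Read in reverse between bases 330 and 469, the 3 member clusters held 4416 in Arhgap21, 4414 in D130009I18Rik and 4413 in Filip1l and Cmss1. Sspn and Jarid2 had no cluster there. The counts of these copies on 3 chromosomes thus differed by at most 3 reads.

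The first part of the line was less even. Read in reverse between bases 113 and 295, Arhgap21 and Sspn each held 1800 reads, Filip1l and Cmss1 1604 and Jarid2 108. Read forward between bases 85 and 261, Sspn held 387, Arhgap21 348, Filip1l and Cmss1 346 and Jarid2 7837. The Jarid2 cluster of 7837 reads covered bases 85 to 186, and the forward clusters of the other genes began at base 145 or later. No reverse cluster that overlapped it began before base 113.

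Jarid2 also ended the line. Its cluster of 183 reads covered bases 442 to 530, and it shared words of 20 but not of 30 bases with 5 other rows. At the other end, the cluster of 726 reads in Filip1l and Cmss1, read in reverse, covered bases 1 to 84. It ended exactly where the Jarid2 cluster of 7837 reads began, although they were on different chromosomes and shared no word. The alignment of both to 1 line rests on the genomic spacing of the other Filip1l and Cmss1 clusters.

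**Figure D2:**
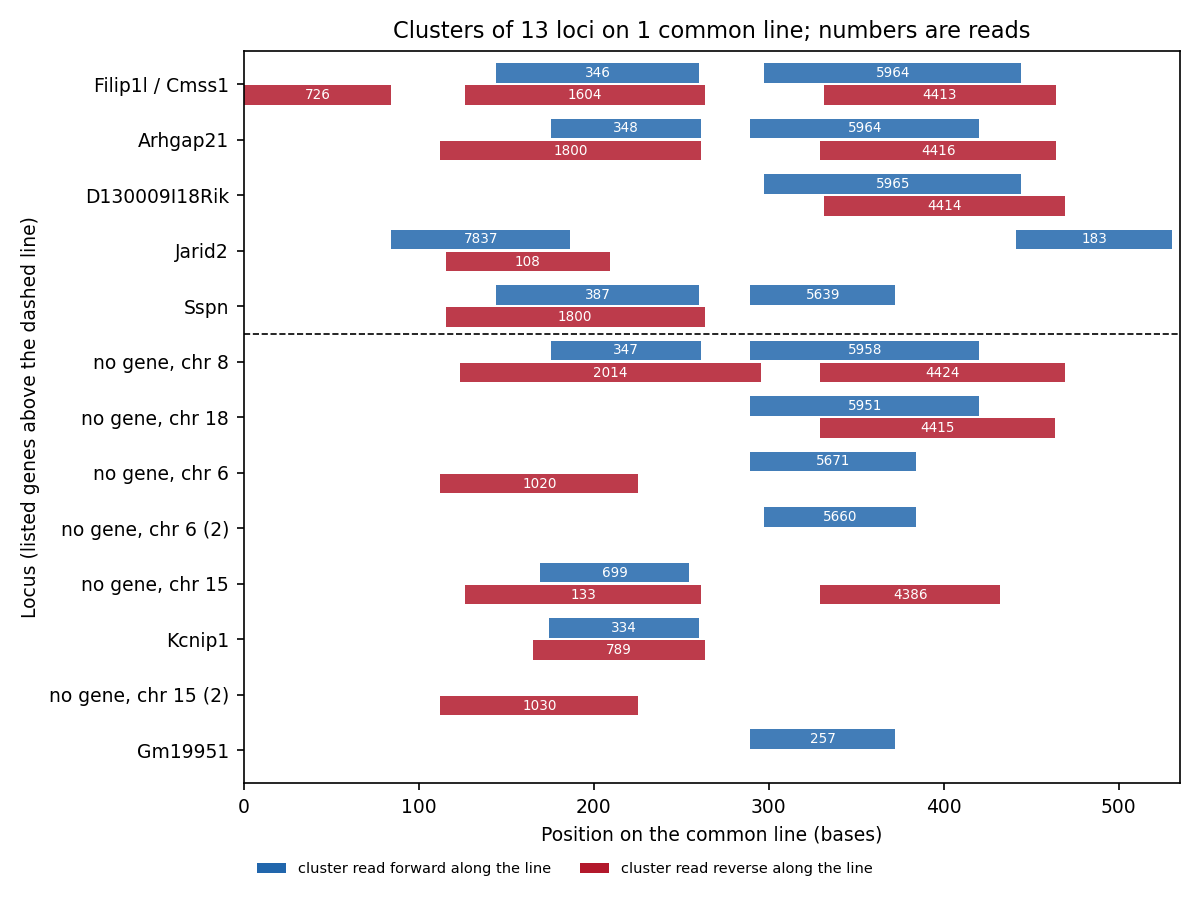
Clusters of 13 loci on the common line, in bases. Blue bars were read forward and red bars in reverse along the line, the number in each bar is its reads, and loci of the listed genes are above the dashed line. Between bases 290 and 444 the blue bars that begin there carry 5639 to 5965 in the listed genes and 257 in Gm19951, the red bars of the listed genes from base 330 on carry 4413 to 4416, and the blue bar at the end, in Jarid2, carries 183.

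The same sequence was listed at 8 loci outside the 8 genes, with 16 clusters. A locus without a gene on chromosome 8 had 5958, 4424, 2014 and 347 reads, and another without a gene had 5951 and 4415. Of the 8 loci 2 lay in genes: Kcnip1, which encodes a protein that binds potassium channels, had 789 and 334 reads, and Gm19951 had 257. Counts such as 5958 and 4424 were therefore also found where no gene is annotated, while the forward rows outside the genes between bases 85 and 261 held at most 699, below the 7837 of Jarid2. The 15 rows of the part of the line after base 290 that were linked by 30-base words summed to 73497 reads, 13.3% of the list, while no row held more than 5965.

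Of the 33 placed clusters, 6 differed from the base that most loci held, and 3 of these had low counts for their place. The Jarid2 cluster of 108 reads had 1 difference, G206A on the line, from the base most loci held, and the Arhgap21 and Sspn clusters of 1800 reads there had none. The chromosome 15 cluster of 133 reads had 2 differences, G129A and G172A. The Gm19951 cluster of 257 reads had C334T and C339T, where clusters of Sspn and Arhgap21 with no difference had 5639 and 5964. The other 3 were not low. The forward cluster on chromosome 15 held G172A and 699 reads, above the 346 to 387 of the Filip1l and Cmss1, Arhgap21 and Sspn copies without it. The D130009I18Rik cluster of 4414 reads had C469G at its end, a position covered by few loci. The chromosome 8 cluster of 2014 reads had 5 differences (A290C, C291G, G292T, C293A and A294C), at the place where that locus was shifted by 3 bases. Positions count from 1 at the start of the line, with the base of most loci written first.

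The 141767 transcripts of GENCODE M21 were searched for the same sequence. They held no 30-base word of any of the 17 placed member clusters or of the 2 Cdk8 clusters. By blastn alignment the nearest transcript to the clusters of 1604 reads in Filip1l and Cmss1 and of 1800 reads in Sspn was that of Gm37076, with 88.9% identity over 45 bases. For the Cdk8 cluster of 43217 reads it was Iqca, with 81.4% over 59 bases, and for the Jarid2 cluster of 7837 reads and the D130009I18Rik cluster of 5965 reads there was none. From general knowledge the common line and the Cdk8 clusters read like the RNA of the large ribosomal subunit or its reverse complement. Both strands of the line and of the Cdk8 window held clusters, so not every cluster reads in the direction of that RNA. No sequence of that RNA was used here, so neither this identity nor the direction of any cluster was tested.

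Cdk8 was apart from the common line. Neither of its clusters shared a word of 20 or of 30 bases with any other row, and blastn aligned no other row to them. The 43217 reads were thus listed at 1 place only, in contrast with the 5964 of Filip1l and Cmss1.

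Phkb belonged to a different sequence. Its cluster of 3137 reads was listed at 10 further loci with identical bases, and the 11 rows held 3132 to 3163 reads. The 4 rows on the plus strand held 3132 to 3141 and the 7 on the minus strand 3150 to 3163, so the 2 strands did not overlap. The order was not tested. Of the identical rows 2 lay in other genes, Rsu1 with 3139 reads and Gm6213 with 3162.

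Of the 224 other rows that share a 30-base word with the Phkb cluster, 121 were no copy of its full length with at most 8 differing bases. These 121 held 5 to 1587 reads (median 12), with 13 of them at 1561 to 1587. The full-length copies, 104 with Phkb, held at most 1116 reads where any base differed. With C43G alone, 9 rows held 1036 to 1116 reads (median 1067). With A2C and G63A, 76 rows on 20 chromosomes held 5 to 27 reads (median 7.5). A single row with A4T held 36, and 2 rows with C5T and C43G held 75 and 81. The counts of the 3 printed forms thus did not overlap, although each form lay on several chromosomes.

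**Figure D3:**
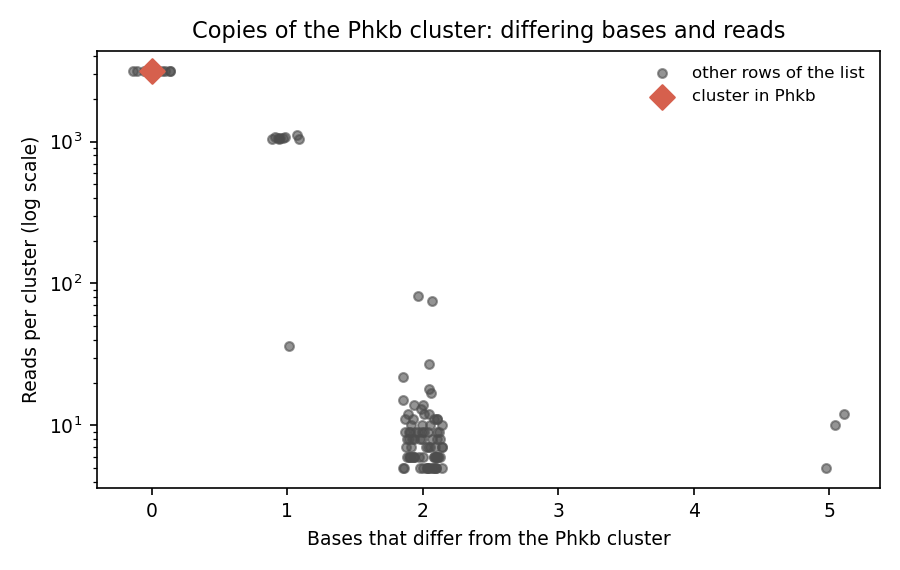
Reads per cluster (log scale) against the number of bases that differ from the Phkb cluster, for its 104 full-length copies; points are shifted sideways at random within each number. The 11 identical rows, Phkb among them as a diamond, lie at 3132 to 3163 reads and the 80 rows with 2 differences at 5 to 81.

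The repeat was present in annotated transcripts. Words of 30 bases of the Phkb cluster occurred in transcripts of 76 genes in the same orientation and of 57 in the opposite one. The other Phkb cluster, 12 reads on chromosome 8 (86029183 to 86029266), shared no word with another row and lay 216 bases from an exon. Its count was near the median of the list, 14 reads.

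Over the list, 16 of the 22 clusters (72.7%, Wilson interval 51.8 to 86.8) shared a 30-base word with another row, against 1862 of 4762 (39.1%, interval 37.7 to 40.5). They held 55.0% of the member reads, against 82.3% for all clusters. The Cdk8 cluster of 43217 reads had no copy among the rows of the list and held most of the rest. No genome sequence was used, so copies outside the list could not be seen. The 6 clusters without a shared word were both of Cdk8, 183 reads in Jarid2, 726 in Filip1l and Cmss1, 18 in Arhgap21 and 12 in Phkb, 44242 reads together. Counting each group of rows linked on the same strand once, at its highest member row, left 67397 of the 98384 member reads, and at its highest row anywhere in the list 67645.

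Clusters of the 8 genes also differed in shape from most of the list, which was not tested. They were 83 to 149 bases long (median 109), and 12 of 22 (54.5%, interval 34.7 to 73.1) exceeded 100 bases, against 89 of 4762 (1.87%). All 12 were clusters of the common line. The clusters of Cdk8, of Phkb and of the Arhgap21 exon were 84 to 95 bases long, so the 8 genes did not all share the greater length. It was also not limited to them, as the 16 clusters of the line outside the 8 genes were 83 to 172 bases long. Length moved with read count, as 33 of the 129 clusters with 1000 or more reads (25.6%) exceeded 100 bases. The median GC content was 56.1% (range 38.8 to 78.6) against 41.7% in the list. Of the 22 clusters 7 (31.8%, interval 16.4 to 52.7) began with AC, against 78.9% of the list.

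**Figure D4:**
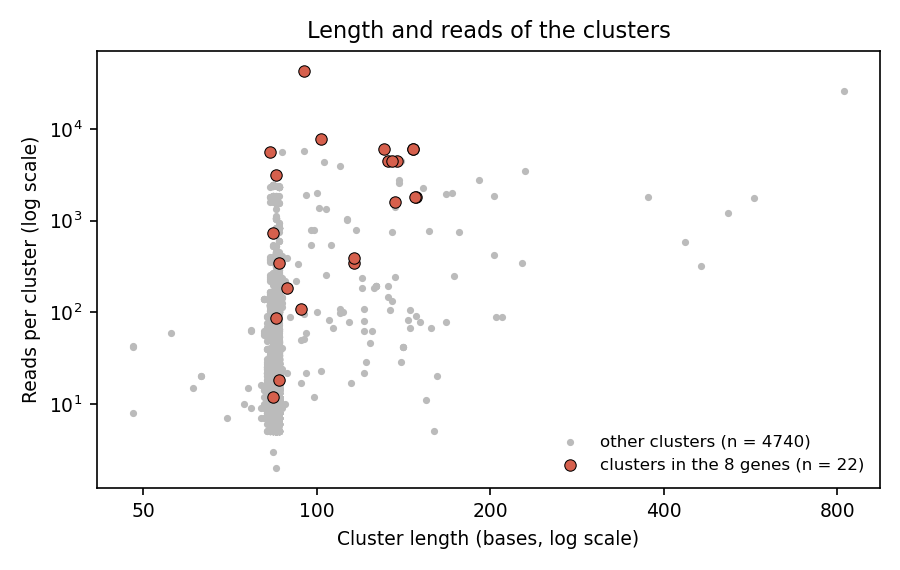
Length (bases, log scale) and reads (log scale) of the 22 clusters in the 8 genes (red) and the other 4740 clusters (grey). Most grey points stand in a column near 85 bases, the median length, while 12 red points lie beyond 100 bases. These 12 are all clusters of the common line.

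Ranked by reads on either strand, the genes stood at rank 1 (Cdk8) and jointly at rank 4 (Filip1l and Cmss1), with Arhgap21, D130009I18Rik, Jarid2 and Sspn at ranks 6 to 9. Phkb was at rank 13 with 3149 reads. Genes above it that were not chosen were CT010467.1, annotated as ribosomal RNA, with 39541 reads, Gm42418 with 35449 and AY036118 with 7777, mt-Rnr1 with 4510 and Gm6213 with 3173. CT010467.1 and Gm42418 held the same highest cluster, of 25832 reads, so their sums cannot be added. Just below Phkb was Rsu1 with 3139. Gm6213, Phkb and Rsu1 all owed their place to the same 85 bases.

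Genes that work with the 8 were then examined, from lists drawn up with earlier results of these data known. The counts stand against the 3.53% of all genes and 6.89% of protein-coding genes with a cluster on either strand. Of 6 further Mediator kinase module genes, Med13 had 14 reads in 1 cluster opposite to the gene, and Cdk19, Ccnc, Med12, Med12l and Med13l had none. Of 11 further PRC2 genes, among them the methyltransferases Ezh1 and Ezh2, none had a cluster. Of 7 further genes of glycogen phosphorylase and its kinase, Phka1 had 6 reads. They lay in 1 cluster on its strand that shared a 30-base word with another row.

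Of 14 further genes of the dystrophin complex, 4 had a cluster. Sgcz, a sarcoglycan, had 1587 reads in 3 clusters, 1563 of them in 1 cluster that shared a 30-base word with the Phkb cluster. Dmd, which encodes dystrophin, had 209 reads in 2 clusters, and its cluster of 194 reads shared a word with the Phkb cluster too. Its relative Utrn had 10 reads and Dtnb had 12, each in 1 cluster opposite to the gene that shared no word with another row. Of 8 further genes of ribosome production and filamin, nucleolin (Ncl) had 197 reads in 3 clusters. Among 7 annotated loci of ribosomal RNA or known to hold like sequence, 6 had a cluster, including Lars2 with 1410 reads, Camk1d with 195 and Gm26917 with 27. The single clusters of Lars2 and Gm26917 lay opposite to the gene, and Camk1d had 1 of 3 on its strand.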

How the data were processed

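The authors deposited a single cluster list for the series, with a raw read count for each cluster, made by sequencing, alignment and cluster calling. No column belongs to a library. The tools named for it are bcl2fastq and TopHat2 (2.1.0), with mm10 as the build, per the submitters' processing notes. Which caller, thresholds and libraries made the clusters, and how reads with several matches were treated, is not given in the labels or headers used here. A read of a repeated sequence may be counted at each copy, so sums over clusters can exceed the reads sequenced. Depth per library is unknown.

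Genes and exons came from GENCODE M21 (GRCm38, the assembly of mm10). Positions are 1-based and inclusive, and the length of every cluster equalled that of its sequence. Members were the clusters with their midpoint in the span of a listed gene. Rows were linked by shared words of 30 bases on either strand. The common line was built from words of 20 bases. The placement was also run on simulated data with known positions. Copies there were exact, so the placement of differing or shifted copies was not tested. blastn (BLAST 2.17.0, e-value limit 1e-05, no masking) compared clusters with transcripts and with each other. Scripts ran in Python 3.11.15 with pandas 2.3.3 and SciPy 1.17.1. No sequence of the genome and no repeat annotation was used.

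The members and gene lists were chosen with earlier results of these data known. Named genes were all 8 members, genes at rows that share a word with them (up to 5 per member by reads), the best aligned transcripts of the 3 highest clusters and related genes with a cluster; Gm37076, mt-Rnr1 and the loci set beside the members by rank were added after their values were seen. Tests between the groups need counts per library and were not run. Alternatives changed the assignment rule, the word length, the strand rule, the read minimum and the counting of copies. The related genes of 1 of the lists are not reported here. Shares have Wilson 95% intervals.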

Additional observations from a re-analysis of the deposited data

How the results depend on the processing

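Of 24 alternative values for results over all 8 genes, 17 stayed within counting error or within 1.5 times the count and 7 moved. The members' share of all reads, 17.8%, became 18.4% when clusters under the list's median were dropped, 28.9% with each identical sequence counted once and 10.8% without the highest Cdk8 cluster. It became 34.3% with each same-strand family counted once, an alternative chosen after seeing the data. The share of reads opposite to the gene, 74.1%, became 79.7% with identical sequences counted once and 57.7% without the highest Cdk8 cluster. These are shares of the reads of the pairs, in which Filip1l and Cmss1 clusters count for both genes. When only clusters with no gene on their strand were counted, the share was 70.7%. That share is of the reads of the 22 clusters, each counted once. The clusters that share a word were 72.7% to 77.3% of the 22 with words of 20 or 40 bases, with the same strand only and with rows that do not overlap. Any overlap in place of the midpoint changed no value. No paired analysis was possible because reads are not split by library, and for the same reason the planned replicate block and leaving out of libraries were not run and the replicate error is unknown.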
